A study of Bos indicus with 6 samples.

Results

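The genes described here are those of the TGF-beta, BMP and activin pathway in the isthmus, the narrow uterine end of the oviduct, of Nelore (Bos indicus) cows 4 days after induced ovulation. They were picked by symbol alone, as the TGF-beta, BMP, GDF, activin and inhibin ligands, anti-Müllerian hormone, the latent TGF-beta binding proteins (LTBPs), the receptors, the SMADs and the main secreted inhibitors, which gave 57 of the 24616 genes listed. RNA-seq libraries came from 3 cows with a large follicle and large corpus luteum (LF/LCL, cows 617, 79 and 527) and 3 cows with a small follicle and small corpus luteum (SF/SCL, cows 856, 489215 and 97), with 1 library per cow. The study asked how the periovulatory hormonal milieu relates to the oviductal transcriptome.

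All 6 cows were healthy and multiparous, and received 2 mg of estradiol benzoate with an intravaginal progesterone device, prostaglandin F2alpha (PGF) at device removal and again some hours later, and a GnRH agonist to induce ovulation on day 0. The LF/LCL cows were given an extra PGF injection when the device went in, and their device came out 42 h before GnRH. In the SF/SCL cows it came out 30 h before GnRH, without the extra PGF. According to the study's methods, the oviduct ipsilateral to the corpus luteum was sampled through its whole thickness. Animals were chosen for sequencing from the extremes of groups ranked on follicle diameter, estradiol, corpus luteum area and progesterone. The contrast is therefore between synchronization programmes together with that selection, and not between doses of a single hormone. The ampulla, the wider upper oviduct, is not analysed here.

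Ligands of this family are secreted as dimers that bring together a type II and a type I serine/threonine kinase receptor. TGF-beta and activin receptors phosphorylate SMAD2 and SMAD3, BMP receptors phosphorylate SMAD1, SMAD5 and SMAD9, and both sets enter the nucleus with the common SMAD4. The signal is limited outside the cell by binding proteins such as chordin, noggin and follistatin, and inside it by the inhibitory SMAD6 and SMAD7. In the reproductive tract the family is known for its part in extracellular matrix production, smooth muscle and epithelial differentiation, and embryo-maternal signalling.

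Reads counted on genes came to 23899117 to 34193164 per library, recovered from the deposited normalized counts. The reads sequenced were more than these. Values below are normalized counts, that is, reads divided by the library's size factor. Cow 489215 stood apart: it gave the highest or the lowest value of all 6 cows in 72.4% of 15387 genes, against 15.6% to 38% for each other cow, so results are given with and without it. Smooth muscle markers summed to 728721 to 847464 in LF/LCL cows, 339479 and 399048 in cows 856 and 97, and 1227276 in cow 489215. Fibroblast markers summed to 101656 to 133271 in LF/LCL against 62774 to 94271 in SF/SCL. Markers of secretory and general epithelium ran from 31380 to 45136 in LF/LCL, with 321048, 72455 and 381220 in cows 856, 489215 and 97, most of it OVGP1, the oviductal glycoprotein, in cows 856 and 97. OVGP1 itself was at 287 to 1950 in LF/LCL and at 730 in cow 489215. All 8 ciliated markers were detected. Ciliated markers summed to 33550 to 41635 in LF/LCL and to 56236, 31106 and 63406 in cows 856, 489215 and 97. Mesothelial markers summed to 1670 to 2220 in LF/LCL and to 19597, 2492 and 19443 in the same order, with cows 856 and 97 above every LF/LCL cow in 2 of the 5 markers (MSLN and KRT5) and below every LF/LCL cow in 2 others (LRRN4 and BNC1). Endothelial (10759 to 16255), leukocyte (1972 to 3503) and ovarian (226 to 418, with FSHR at 0 in every cow) sums overlapped between groups. Uterine markers, mostly HOXA10, summed to 2358 to 2874 in LF/LCL and to 850, 6273 and 957 in cows 856, 489215 and 97. In bulk tissue, fewer cells of a type and less RNA per cell cannot be told apart, and the part of these marker levels in the values below was not tested.

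**Figure D1:**
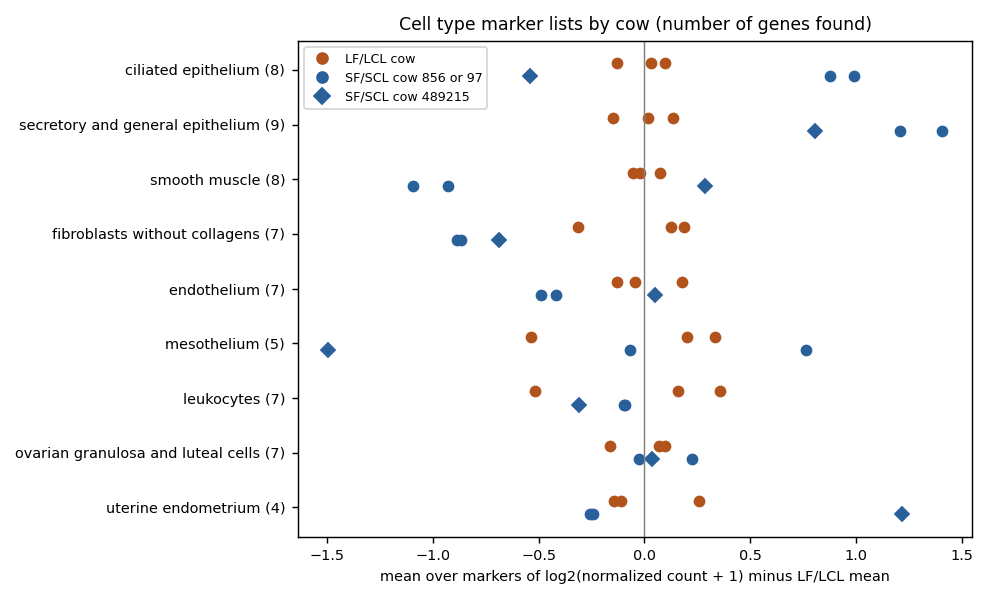
Mean over the markers of each cell type list of the log2 normalized count minus its LF/LCL mean, with a point per cow, LF/LCL and SF/SCL cows in separate colours and cow 489215 as a diamond. Cows 856 and 97 lie near -1 for smooth muscle, where cow 489215 lies at 0.29, and above the LF/LCL cows for both epithelial lists.

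Most pathway genes were more abundant in LF/LCL than in SF/SCL, by modest amounts. Among the 48 members with a mean above 5 normalized counts, 39 (81.2%) had a higher mean log2 value in LF/LCL and 9 in SF/SCL, where 51.4% of all fitted genes lay on the LF/LCL side. Values were compared as log2(normalized count + 1), a scale that understates differences of low genes. The median log2 fold change of the members, written throughout as SF/SCL over LF/LCL, with negative values on the LF/LCL side, was -0.42, against -0.02 over all genes fitted. Without cow 489215, 33 of 47 fitted members (70.2%) were higher in LF/LCL, against 50.1% of all genes, and the median was -0.32. The LF/LCL side kept the majority under each scaling tried, with 36 of 48 members at the fewest (size factors in edgeR or DESeq2) and 42 when values were scaled to the library total, a scaling that moved the median of all genes to -0.10.

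None of the 48 members passed an adjusted p under 0.05 in limma with Benjamini-Hochberg adjustment over all genes, and neither did any of the 15387 genes (0% called), the smallest adjusted p being 0.351. At an unadjusted p under 0.05, limma gave 9 members (18.8%), where 8.66% of all genes passed. Of these, 8 were higher in LF/LCL, where 4.48% of all genes passed in that direction, and 1 in SF/SCL, where 4.19% did. The edgeR quasi-likelihood test called no member and no gene and gave 9 members at the unadjusted level, where 8.7% of all genes passed. DESeq2 called 2 members, LTBP1 and LTBP2, where it called 2.76% of genes tested. Without cow 489215, limma called 13 of 47 members (27.7%), 11 higher in LF/LCL and 2 in SF/SCL, where 18.2% of all genes were called, 7.92% toward LF/LCL and 10.3% toward SF/SCL. Without that cow edgeR also called 13 members, where 17.9% of all genes were called, and DESeq2 called 19, where 26.4% were. Of those 13 genes, FST, BAMBI, BMPR1B and SMAD5 are described below because of this call, and TGFB1, GDF11, INHBA, BMPR-IA, SMAD4 and SMAD6 were also picked out after their values were seen.

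The spread was smaller without cow 489215. The median residual SD of the members' log2 values was 0.49 with all 6 cows and 0.23 without it, and over all genes 0.43 and 0.18. Cow 489215 held the highest value in 14 members and the lowest in 15 (60.4% together). Relative to the LF/LCL mean, the median member stood at -0.40 in cow 856 and -0.26 in cow 97 on the log2 scale, and at -0.01 in cow 489215. With 3 cows against 3, an exact permutation test of a single gene cannot go below p = 0.1, so calls rest on the fits across all genes.

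**Figure D2:**
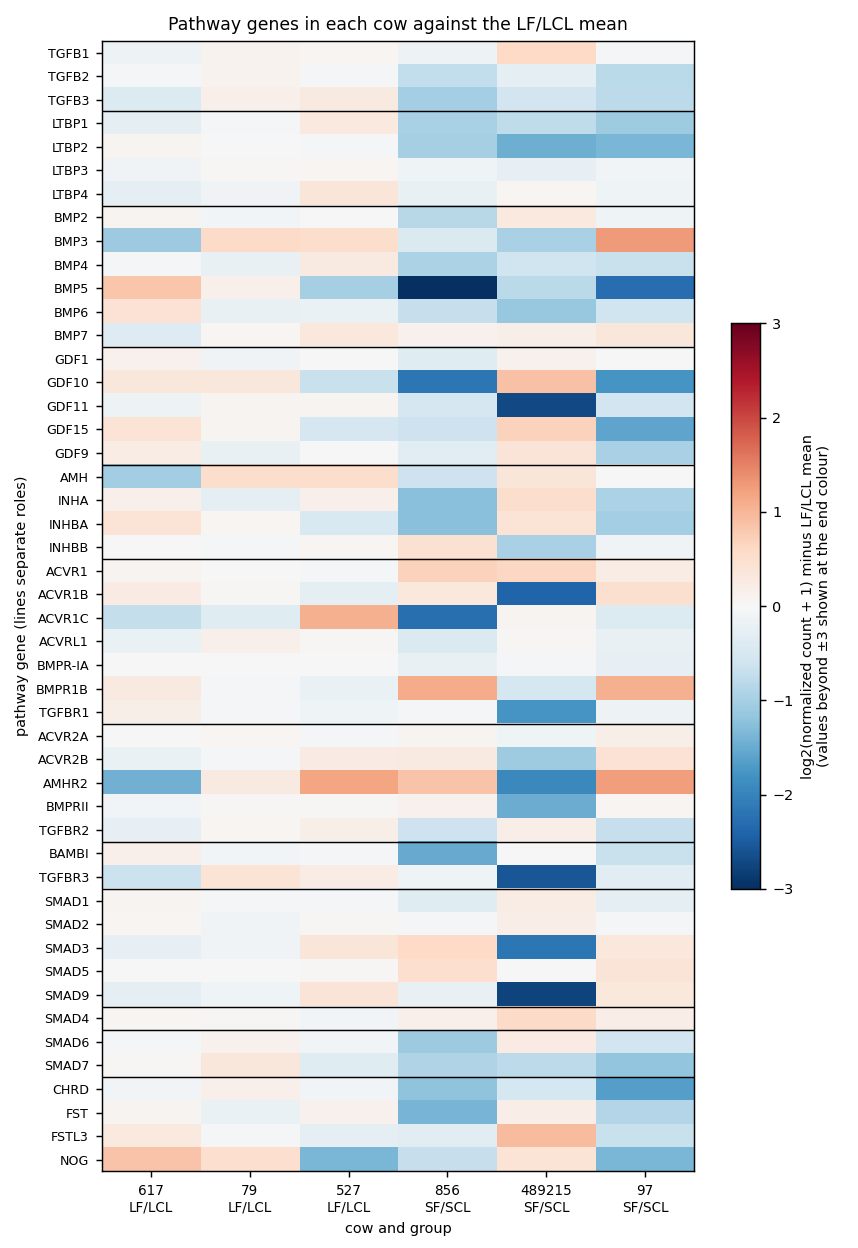
Log2 difference of each fitted member from the LF/LCL mean in each cow, with genes as rows ordered by role and cows as columns, values beyond 3 in either direction being drawn in the end colour. Cow 489215 holds the highest value in 14 rows and the lowest in 15.

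In 12 of the 48 members (25%) every cow of one group lay above every cow of the other, where 18.1% of all genes did. Of these, 10 (20.8%) were higher in LF/LCL, namely LTBP1, LTBP2, TGFB2, TGFB3, BMP4, BMP6, GDF11, BMPR-IA, SMAD7 and CHRD, where 8.6% of all genes separated in that direction. ACVR1 and SMAD4 separated toward SF/SCL, 2 of 48 members where 9.51% of all genes did.

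LTBP2 and LTBP1, of the latent TGF-beta binding proteins, had the smallest limma p-values of all members. LTBPs are matrix glycoproteins of the fibrillin family. LTBP1, LTBP3 and LTBP4 bind the latent TGF-beta complex and hold it in the extracellular matrix, whereas LTBP2 does not bind it and is known from microfibrils and elastic fibres. LTBP2 measured 5280, 4967 and 4768 normalized counts in LF/LCL cows 617, 79 and 527, and 2513, 1823 and 1940 in SF/SCL cows 856, 489215 and 97. Its groups were far apart, with little spread within either, and cow 489215 was on the side of its group. The means were 5005 ± 258 and 2092 ± 370 (SD, n = 3 each), a 2.39-fold difference, with a log2 fold change of -1.27 (SE 0.18, 95% interval -1.71 to -0.83). Adjusted p was 0.351 in limma, 9.34e-06 in DESeq2 and 0.00359 in limma without cow 489215, with a range of 1.93e-12 to 0.999 over all alternatives.

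LTBP1 measured 10900, 12901 and 16073 in LF/LCL and 6664, 7699 and 6285 in SF/SCL. The groups did not overlap, and the LF/LCL cows varied more than the SF/SCL cows. Means were 13291 ± 2608 and 6883 ± 732 (SD, n = 3 each), 1.93-fold apart, with a log2 fold change of -0.94 (SE 0.21). Adjusted p was 0.372 in limma and 0.00751 in DESeq2, and 0.0107 in limma without cow 489215. LTBP3, with a log2 fold change of -0.15 (95% interval -0.52 to 0.22), and LTBP4, with -0.10 (95% interval -0.65 to 0.44), overlapped between groups and were not called with or without that cow. Fibroblast and smooth muscle marker sums, given above, were also lower in cows 856 and 97, and the fibroblast sum was lower in cow 489215 too, as LTBP1 and LTBP2 were. Of the 7 fibroblast markers, 6 were below every LF/LCL cow in cows 856 and 97 and 3 in cow 489215, and their part in the LTBP values was not tested.

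Of the TGF-beta ligands, which act on matrix production, growth and immunity, TGFB2 and TGFB3 were higher in LF/LCL and TGFB1 was not. TGFB2 measured 1018, 1139 and 1014 in LF/LCL and 632, 881 and 605 in SF/SCL, with means of 1057 ± 70.5 and 706 ± 152 (SD, n = 3 each). The groups did not overlap, and cow 489215 lay nearest to the LF/LCL cows. TGFB2 was 1.5-fold higher in LF/LCL, with a log2 fold change of -0.60 (SE 0.22) and an adjusted p of 0.504 in limma, and -0.77 with 0.0079 without cow 489215.

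TGFB3 measured 808, 1184 and 1293 in LF/LCL and 532, 716 and 624 in SF/SCL, with means of 1095 ± 254 and 624 ± 91.9 (SD, n = 3 each). The lowest LF/LCL cow, 617, was close above the highest SF/SCL cow, 489215. The difference was 1.75-fold, with a log2 fold change of -0.79 (SE 0.25) and an adjusted p of 0.454 in limma, and -0.90 with 0.0354 without cow 489215. TGFB1 ran from 277 to 335 in LF/LCL and measured 282, 469 and 306 in SF/SCL, with a log2 fold change of 0.14 (95% interval -0.53 to 0.81), so a difference of either sign within that interval was not excluded.

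Among the BMP ligands, which pattern tissues and govern mesenchymal and epithelial differentiation, BMP4 separated the groups most clearly. BMP4 measured 645, 570 and 797 in LF/LCL and 343, 435 and 419 in SF/SCL, with means of 670 ± 116 and 399 ± 49.2 (SD, n = 3 each). No SF/SCL cow reached the LF/LCL range, and the 3 SF/SCL cows were close together. BMP4 was 1.68-fold higher in LF/LCL, with a log2 fold change of -0.74 (SE 0.23) and an adjusted p of 0.446 in limma, and -0.81 with 0.0303 without cow 489215.

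BMP6 measured 174, 111 and 112 in LF/LCL and 79.8, 58.6 and 84.5 in SF/SCL, a 1.78-fold difference with a log2 fold change of -0.81 (SE 0.35). The groups did not overlap, but adjusted p was 0.597 in limma and 0.173 without cow 489215. BMP5 measured 103, 62.9 and 28.1 in LF/LCL and 0.76, 32 and 10.8 in SF/SCL, where the lowest value rests on a single read and cow 489215 lay inside the LF/LCL range. Its log2 fold change of -2.71 was the farthest from 0 among the fitted members and also imprecise (SE 1.11, adjusted p 0.57 in limma), and without cow 489215 its SD exceeded its mean, so it was not fitted. BMP2 (-0.22), BMP3 (-0.04) and BMP7 (0.21) differed less on the log2 scale and overlapped between groups. BMP10 was at 0 in every library, which counting error alone allows for up to 3 reads a library, and BMP15 was at no more than 6 reads.

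**Figure D3:**
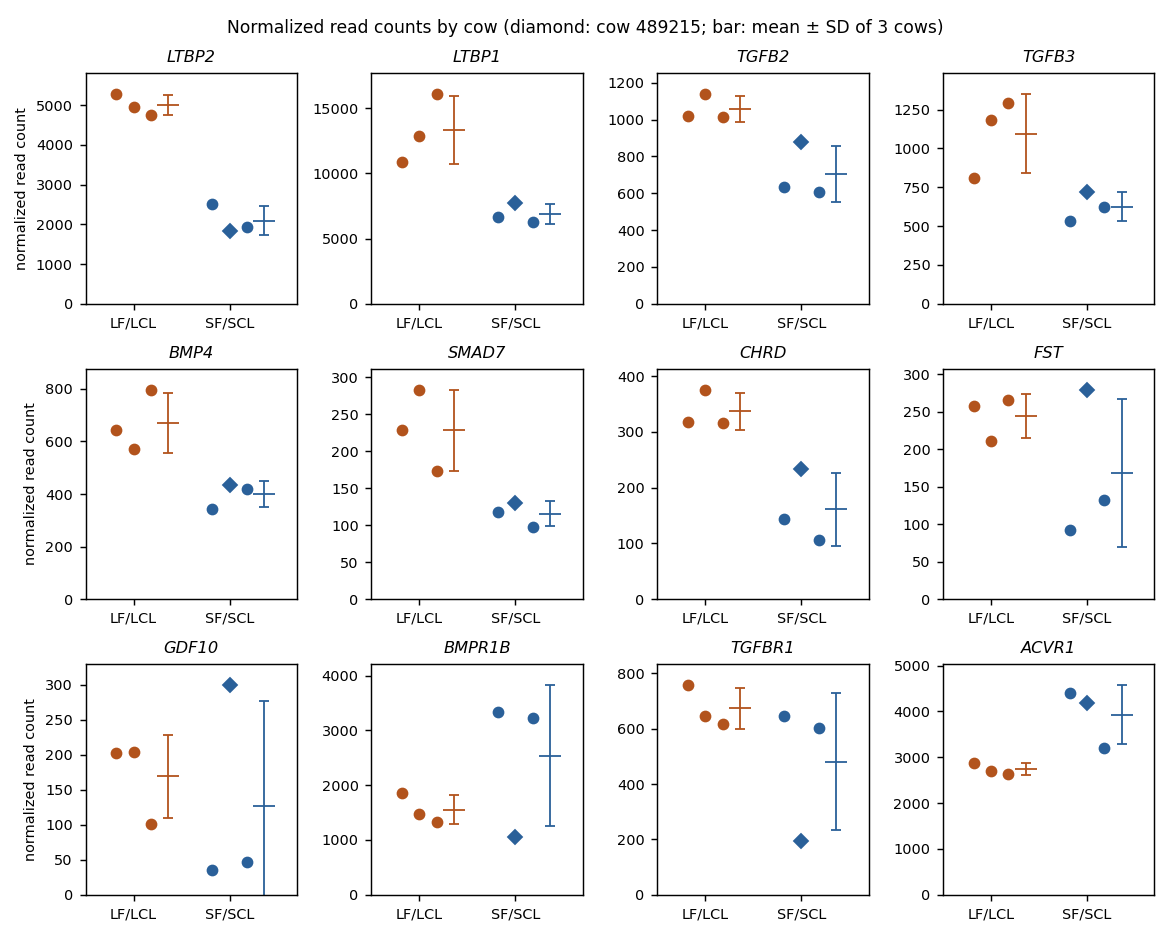
Normalized read counts of 12 pathway genes in a panel each, with a point per cow, cow 489215 as a diamond, and the group mean with its SD (n = 3 each) on linear axes from 0, the SD bar of GDF10 in SF/SCL being cut at 0. LTBP2, LTBP1, TGFB2, TGFB3, BMP4, SMAD7, CHRD and ACVR1 separate the groups with all 6 cows, while cow 489215 lies on the opposite side of the LF/LCL cows from cows 856 and 97 for FST, GDF10 and BMPR1B.

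All 5 fitted GDF ligands had mean log2 values higher in LF/LCL, with a median of -0.50, although GDF15 and GDF9 turned when cow 97 was left out and GDF1 when cow 856 was. GDF10, a BMP3-related ligand, measured 203, 205 and 101 in LF/LCL and 34.9, 300 and 46.6 in SF/SCL. Every LF/LCL cow lay above cows 856 and 97 and below cow 489215. The log2 fold change was -1.02 (SE 0.84, adjusted p 0.832 in limma) with all cows and -1.97 (SE 0.39, adjusted p 0.0199) without cow 489215. GDF11, known for axial patterning, measured 254, 299 and 302 in LF/LCL and 201, 42.6 and 191 in SF/SCL. Its groups did not overlap, but much of its log2 fold change of -1.26 came from the low value of cow 489215, and without it the value was -0.54 (adjusted p 0.0793 in limma). GDF2 was at 0 in every library, and GDF5, GDF6 and GDF7 at no more than 4 reads in any, so none of these could be compared at this depth.

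The inhibin and activin subunits INHA, INHBA and INHBB and anti-Müllerian hormone (AMH) had log2 fold changes of -0.62 to -0.09, and limma called none with or without cow 489215. INHBA, the subunit of activin A, measured 202, 159 and 110 in LF/LCL and 63, 201 and 74.8 in SF/SCL. Cows 856 and 97 lay below the LF/LCL range and cow 489215 within it, and the log2 fold change went from -0.62 to -1.14 without that cow (adjusted p 0.0536 in limma). INHBC was at 0 in every library and INHBE at no more than 2 reads.

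Receptors lay on both sides. The 7 type I receptors had a median log2 fold change of -0.21 and the 5 type II receptors -0.12. ACVR1, a type I receptor for BMPs and activins, measured 2879, 2709 and 2626 in LF/LCL and 4409, 4179 and 3200 in SF/SCL, with means of 2738 ± 129 and 3930 ± 642 (SD, n = 3 each). Every SF/SCL cow, including 489215, lay above the LF/LCL cows. ACVR1 was 1.44-fold higher in SF/SCL, with a log2 fold change of 0.51 (SE 0.18) and an adjusted p of 0.503 in limma, and 0.46 with 0.0758 without cow 489215.

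BMPR1B, a type I BMP receptor, measured 1849, 1474 and 1330 in LF/LCL and 3332, 1060 and 3231 in SF/SCL. Cows 856 and 97 were alike and 2.12-fold above the LF/LCL mean, whereas cow 489215 was below every LF/LCL cow. With all cows the log2 fold change was 0.55 (SE 0.46, adjusted p 0.834 in limma), and without cow 489215 it was 1.09 (SE 0.15, adjusted p 0.00663). The summed markers of ciliated epithelium were likewise above the LF/LCL range in cows 856 and 97 and below it in cow 489215. Gene by gene, cows 856 and 97 were above every LF/LCL cow in 7 of 8 of these markers, while cow 489215 was below in 4 and above in 1, and their part in the BMPR1B values was not tested. BMPRII, ACVR1B, ACVR2A and ACVR2B had the same arrangement of cows. These 5 are 10.4% of the members, where 14% of all genes were so arranged.

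TGFBR1, the type I receptor of the TGF-betas, measured 757, 646 and 617 in LF/LCL and 644, 196 and 603 in SF/SCL. Cow 489215 was far below the other cows, which ran from 603 to 757, and the log2 fold change went from -0.66 (SE 0.48, adjusted p 0.795 in limma) to -0.11 (SE 0.13, adjusted p 0.623) without it. ACVR1B, a type I activin receptor, measured 519, 447 and 356 in LF/LCL and 539, 81.2 and 612 in SF/SCL, and its log2 fold change turned from -0.54 to 0.40 without that cow. BMPR-IA, a further type I BMP receptor, separated the groups by a small step, from 4687 to 4770 in LF/LCL and from 4019 to 4650 in SF/SCL, with a log2 fold change of -0.16 (95% interval -0.53 to 0.20).

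TGFBR2, the type II receptor that binds TGF-beta, measured 7325, 9003 and 9830 in LF/LCL and 5662, 9908 and 5349 in SF/SCL. The LF/LCL cows lay above cows 856 and 97 and below cow 489215. Means were 8719 ± 1276 and 6973 ± 2546 (SD, n = 3 each), with a log2 fold change of -0.37 (SE 0.29, adjusted p 0.816 in limma), and -0.65 (SE 0.14, adjusted p 0.0232) without cow 489215. AMHR2, the receptor of anti-Müllerian hormone, was low, with 4.19, 16 and 30.7 in LF/LCL and 24.3, 2.66 and 32.5 in SF/SCL. Its direction (log2 fold change 0.05, SE 1.06) turned under library total scaling and when cow 617, 856 or 97 was left out, so no direction is given.

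TGFBR3, or betaglycan, presents TGF-beta2 to the signalling receptors, and BAMBI is a decoy without a kinase. TGFBR3 measured 3248, 6681 and 5892 in LF/LCL and 4611, 844 and 3973 in SF/SCL, with the lowest value in cow 489215, and its log2 fold change went from -1.02 (SE 0.68) to -0.23 (SE 0.30) without it. BAMBI measured 569, 483 and 496 in LF/LCL and 180, 518 and 324 in SF/SCL. Cow 489215 was within the LF/LCL range and the other SF/SCL cows were below it, with a log2 fold change of -0.72 (SE 0.40, adjusted p 0.7 in limma) that became -1.09 (adjusted p 0.0339) without cow 489215.

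**Figure D4:**
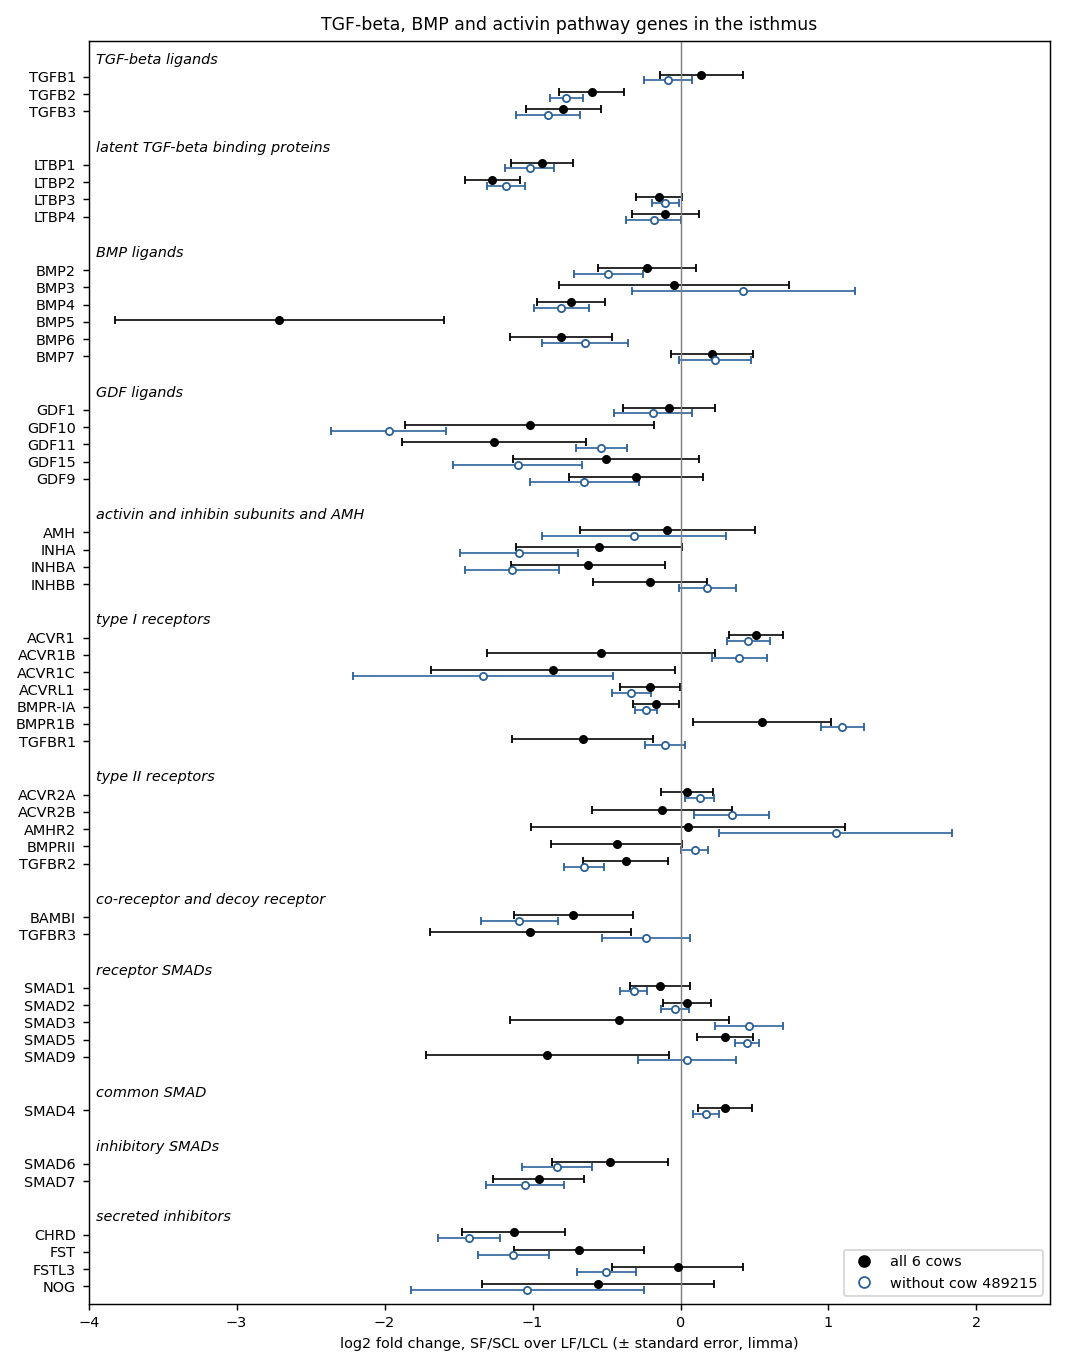
Log2 fold change (SF/SCL over LF/LCL) of each of the 48 fitted members grouped by role, with its standard error from limma, as filled points with all 6 cows and open points without cow 489215. Of the filled points, 39 lie left of 0, the side of LF/LCL.

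The receptor SMADs, which carry the signal to the nucleus, lay on both sides of 0. SMAD2 had a log2 fold change of 0.04 (95% interval -0.35 to 0.43). SMAD5, of the BMP branch, measured 4144, 4097 and 4225 in LF/LCL and 5901, 4153 and 5454 in SF/SCL. The LF/LCL cows and cow 489215 were nearly equal and cows 856 and 97 stood above them, so that the log2 fold change was 0.30 (SE 0.19, adjusted p 0.752 in limma) with all cows and 0.45 (SE 0.08, adjusted p 0.0164) without cow 489215. SMAD3 measured 219, 241 and 333 in LF/LCL and 396, 57.2 and 325 in SF/SCL, and SMAD9 measured 65.9, 72.3 and 105 against 67.6, 10.7 and 98.6. Both were lowest in cow 489215, and their log2 fold changes turned without it, from -0.41 to 0.46 and from -0.90 to 0.04. SMAD4, the common partner, separated toward SF/SCL, from 4920 to 5422 in LF/LCL and from 5751 to 7719 in SF/SCL, with a log2 fold change of 0.30 (SE 0.18, adjusted p 0.736 in limma).

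Among the inhibitors, all 6 fitted genes had a higher mean log2 value in LF/LCL, except that the sign of FSTL3 turned in edgeR, in DESeq2 and when cow 617, 856 or 97 was left out. SMAD7, which blocks TGF-beta and BMP receptors from inside the cell, measured 229, 283 and 173 in LF/LCL and 118, 130 and 97.5 in SF/SCL, with means of 228 ± 54.8 and 116 ± 16.7 (SD, n = 3 each). All 3 SF/SCL cows were below the LF/LCL range. The difference was 1.98-fold, with a log2 fold change of -0.96 (SE 0.31, adjusted p 0.454 in limma), and -1.05 (adjusted p 0.0407) without cow 489215. SMAD6, which acts mainly on BMP signalling, had a log2 fold change of -0.48, and -0.83 (adjusted p 0.057) without that cow.

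Chordin (CHRD), an extracellular antagonist that binds BMPs, measured 318, 375 and 316 in LF/LCL and 144, 233 and 106 in SF/SCL. The groups did not overlap, with cow 489215 the highest of the SF/SCL cows. Means were 337 ± 33.6 and 161 ± 65 (SD, n = 3 each), a 2.09-fold difference with a log2 fold change of -1.13 (SE 0.35, adjusted p 0.442 in limma), and -1.43 (adjusted p 0.00832) without cow 489215. Follistatin (FST), which binds activins, measured 257, 211 and 265 in LF/LCL and 92.7, 280 and 132 in SF/SCL. Its cows 856 and 97 were below every LF/LCL cow and cow 489215 above them, and the log2 fold change went from -0.69 (adjusted p 0.758 in limma) to -1.13 (adjusted p 0.024) without it. FSTL3, an activin-binding relative of follistatin, had a log2 fold change of -0.02, and NOG, or noggin, one of -0.56 (SE 0.78). GREM1, a BMP antagonist, had no more than 7 reads in any library and was not fitted.

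FST, GDF10 and TGFBR2 belonged to 10 members in which cows 856 and 97 lay below every LF/LCL cow and cow 489215 above them all, with SMAD1, SMAD6, BMP2, GDF9, GDF15, INHA and FSTL3. That is 20.8% of fitted members, where 12.8% of all genes were so arranged. The summed smooth muscle markers had the same arrangement of cows. Gene by gene, cows 856 and 97 were below every LF/LCL cow in 8 of 8 markers. Cow 489215 was above every LF/LCL cow in 5 of 8 and below in 2 (MYH11 and SYNPO2). The part of these markers in the values of the 10 members was not tested. In LTBP2, LTBP1, TGFB3, BMP4, SMAD7 and CHRD cow 489215 was below every LF/LCL cow, as in MYH11 and SYNPO2. These members are among the 10 with the smallest unadjusted limma p. That choice favours genes in which cow 489215 lies with its group.

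A wider list of 60 pathway genes outside the symbol rule held 53 that were listed and 49 that were fitted. Of these, 36 were higher in LF/LCL and 13 in SF/SCL, where 51.4% of all genes were higher in LF/LCL, and the median log2 fold change was -0.33. None was called in limma (0% of all genes), and 6 passed an unadjusted p under 0.05, where 8.66% of all genes passed. The edgeR test called none and had 7 at the unadjusted level, where 8.7% of all genes passed, and DESeq2 called 2, ENG and RGMB, where it called 2.76% of genes tested. Without cow 489215, limma called 16 of 49, 12 higher in LF/LCL and 4 in SF/SCL. Of all genes 18.2% were then called, 7.92% toward LF/LCL and 10.3% toward SF/SCL.

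Of 9 fitted co-receptors and partners of the latent complex, 5 separated the groups, all higher in LF/LCL, where 8.6% of all genes separated in that direction. Endoglin (ENG), a co-receptor known mainly from endothelium, measured 1506, 1727 and 1556 in LF/LCL and 820, 723 and 984 in SF/SCL, and RGMB, a BMP co-receptor, 2251, 3936 and 1978 against 1096, 1030 and 874. Neither gene overlapped between groups, and the log2 fold changes were -0.93 (SE 0.19) and -1.38 (SE 0.29), with adjusted p of 0.367 for each in limma, 0.00323 and 0.00375 in DESeq2, and 0.00856 and 0.0229 in limma without cow 489215. LRRC32, which tethers latent TGF-beta at the cell surface, measured 587, 481 and 427 in LF/LCL and 268, 114 and 259 in SF/SCL, with a log2 fold change of -1.30 (SE 0.39, adjusted p 0.433 in limma and 0.0191 without cow 489215). The summed endothelial markers overlapped between groups, with 12613 to 16255 in LF/LCL and 10759, 15288 and 11142 in cows 856, 489215 and 97, but cows 856 and 97 were below every LF/LCL cow in 6 of 7 of these markers, and cow 489215 was below in 2 and above in 2. The endothelial cadherin CDH5, named after its values were seen, was arranged as ENG was, from 1065 to 1145 in LF/LCL and at 709, 422 and 742 in cows 856, 489215 and 97. CDH5 was the only marker of the 7 whose groups did not overlap. In EMCN and ESAM cow 489215 was above every LF/LCL cow, opposite to ENG. The part of endothelial RNA in the ENG values was not tested.

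Secreted modulators overlapped between groups in all 12 fitted genes, where 18.1% of all genes did not overlap. CHRDL1, a chordin relative, had a log2 fold change of -0.82 (SE 0.55), BMP1, the protease that cleaves chordin, -0.42 (SE 0.31), and FSTL1 -0.41 (SE 0.36), the last becoming -0.80 (adjusted p 0.0127 in limma) without cow 489215. Of the 14 intracellular regulators, ZFYVE9, or SARA, which brings SMADs to receptors, had a log2 fold change of -0.44 (SE 0.16), PMEPA1, a TGF-beta-induced inhibitor, -0.84 (SE 0.36), and TGIF1, a SMAD corepressor, 0.50 (SE 0.21) toward SF/SCL. These 3 have the smallest unadjusted limma p of the list, and all separated the groups. In the whole list 6 of 14 genes separated, 4 toward LF/LCL and 2 toward SF/SCL. Of all genes, 8.6% and 9.51% separated in those directions. None of the 3 was called in limma with or without cow 489215.

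Genes that respond to the pathway went both ways with all 6 cows. Of 7 fitted BMP-responsive genes, 4 were higher in LF/LCL and 3 in SF/SCL. The same split held for 7 TGF-beta-responsive genes, where 51.4% of all genes were higher in LF/LCL. Leaving out cow 489215 moved the median log2 fold changes from -0.28 to -0.64 and from -0.33 to -0.51, in that order. Only MSX2 and CDKN2B then had a higher mean log2 value in SF/SCL. Limma then called 1 BMP-responsive gene toward each group, and 3 TGF-beta-responsive genes toward LF/LCL and 0 toward SF/SCL. Over all genes it then called 7.92% toward LF/LCL and 10.3% toward SF/SCL. MSX1, a homeobox target of BMPs, measured 1721, 1228 and 1342 in LF/LCL and 125, 2739 and 461 in SF/SCL, and its relative MSX2 37.7, 42.2 and 19.3 against 130, 37.3 and 147. Cows 856 and 97 were below the LF/LCL cows for MSX1 and above them for MSX2, and without cow 489215 the log2 fold changes were -2.55 (adjusted p 0.0197 in limma) and 2.11 (adjusted p 0.0193), against -1.38 (SE 1.03) and 1.48 (SE 0.63) with all cows. HEY1, a BMP-responsive repressor, had a log2 fold change of -0.69 (SE 0.29) and separated the groups. It was the only BMP-responsive gene of the 7 to do so, where 18.1% of all genes separated. Of the TGF-beta-responsive genes, TGFBI, a matrix protein, had -0.82 (SE 0.44) and CDKN2B, a cell cycle inhibitor, 1.68 (SE 0.83) on the log2 scale, and neither was called with or without that cow.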

How the data were processed

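Each library was made from the isthmus of a different cow, so replicates are animals. Per the labels, libraries followed an Illumina TruSeq protocol. The submitters' processing notes name CASAVA 1.8.2, TopHat2 2.0.8, Bowtie2 2.1.0, SAMtools 0.1.18, HTSeq 0.5.4p2 and DESeq 1.12.1, and the strand setting of the counting is not given in the sources used here, so a gene and an antisense partner may share reads. The deposited signal values are gene read counts that the authors divided by a size factor per library (0.751 to 1.32). Dividing by the step of each library gave whole reads for 100% of 147696 values within a tolerance of 0.0006. These came to 23899117 to 34193164 reads counted on genes per library, and 5476 of 24616 genes were at 0 throughout. No molecular identifiers were used, so floors (3 reads) cover counting error only.

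Groups were compared with limma 3.58.1 (trend and robust, R 4.3.3) on log2(normalized count + 1) over the 15387 genes whose mean exceeded both 5 and the SD, with Benjamini-Hochberg adjustment over all of them at 0.05. Alternatives were other pseudocounts, filters and scalings, voom, edgeR 4.0.16 and DESeq2 1.42.0 on the recovered reads, and leaving out each cow. Fits were tested on simulated data. edgeR and DESeq2 without cow 489215 were added after seeing the data.

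The members and lists were chosen with earlier results of these data known. Values in every cow are given for TGFB2, TGFB3, TGFBR1 and TGFBR2, which the study measured by qPCR. They are also given for BMP4, LTBP1 and LTBP2, which the study named as higher in the LF/LCL isthmus from its own RNA-seq analysis. Further members shown are the 10 with the smallest unadjusted p and the 6 that moved most without cow 489215. Members lost to the SD filter were to be shown too, and there were 0. Of each wider pathway list the 3 genes with the smallest p are named, apart from a gene that is not reported here. Genes outside this rule are said to be so in the text. No reference sequence was used.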

Additional observations from a re-analysis of the deposited data

How the results depend on the processing

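The count of members past an adjusted p under 0.05 was 0 in limma under every pseudocount, filter and scaling tried, in voom and in edgeR, 2 in DESeq2, and with cow 489215 left out 19 in DESeq2 and 13 in edgeR. Leaving out 1 cow at a time gave 0 to 13, the highest without cow 489215 and 0 without any other cow. Members at an unadjusted p under 0.05, 9 with all cows, numbered 22 in DESeq2 and 22 in edgeR without cow 489215, and 3 to 23 over the fits that left out 1 cow, namely 4 without cow 527, 5 without cow 617, 3 without cow 79, 5 without cow 856, 6 without cow 97 and 23 without cow 489215. Of all genes, 8.66% passed this level in limma with all cows. With cow 489215 left out, 33.9% passed in limma, 33.7% in edgeR and 34.4% in DESeq2. No share of all genes is given for the fits without another cow. Their member counts are therefore not read as a result about the members. The wider pathway genes called numbered 2 in DESeq2, 21 in DESeq2 and 15 in edgeR without cow 489215, and 0 to 16 when 1 cow was left out, again 0 unless it was cow 489215. The median log2 fold change of the members, -0.42, was -0.24 in DESeq2, -0.27 in edgeR with TMM and -0.24 in edgeR with size factors, and -0.47 to -0.30 when 1 cow was left out. Members whose groups did not overlap numbered 12 to 31 when 1 cow was left out, 31 being without cow 489215. Groups with fewer cows separate more easily, in all genes too. With all 6 cows 18.1% of all genes separated. In a further 14% cows 856 and 97 lay above every LF/LCL cow and cow 489215 below, and in 12.8% the reverse held. In 3.39% and 3.63% cows 856 and 97 lay above or below, with cow 489215 within the LF/LCL range. All these arrangements separate the groups once cow 489215 is left out. Among the 48 members the shares were 25%, 10.4%, 20.8%, 2.08% and 8.33%, in the same order. How many of all genes separate without another cow was not counted. The member counts for those cows are therefore not read as a result about the members. Of 356 values of 18 members under 20 alternatives, 13 turned direction, in 4 members. These 18 include the 10 chosen for the smallest unadjusted p, so they turn less readily than the other members. Over all fitted members, 9 turned in limma without cow 489215, 6 without cow 856 and 5 without cow 97. Leaving out an LF/LCL cow turned 3 without cow 527, 2 without cow 617 and 3 without cow 79. AMHR2 (0.05) came to -0.0076 under library total scaling and ranged from -0.67 to 1.05 when 1 cow was left out. Without cow 489215, SMAD9 (-0.90) came to 0.025 in DESeq2 and 0.030 in edgeR, ACVR1B (-0.54) to 0.38 and 0.38, and SMAD3 (-0.41) to 0.44 and 0.44, and over the fits that left out 1 cow their ranges were -1.51 to 0.042, -1.05 to 0.40 and -0.92 to 0.46. The cause of these differences was not tested. No paired analysis was possible because each cow gave 1 library and the groups share no cow number. Depth limited the 9 members at a mean of 5 or less.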
